A study of Rattus norvegicus with 6 samples.

Results

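The kainate receptor subunits were examined in primary hippocampal neurons in which Cyclin Y (CCNY) was overexpressed or knocked down. They are the 5 genes Grik1, Grik2, Grik3, Grik4 and Grik5, taken by symbol from the 17066 genes of the deposited table, and all 5 were found. The neurons were taken at embryonic day 18 from Sprague-Dawley rats, and all cultures were infected with lentivirus on day 5 or 6 in vitro and lysed on day 14. EGFP control neurons received virus with EGFP alone, CCNY-WT neurons virus for wild-type CCNY with EGFP, and CCNY-shRNA neurons virus for an shRNA against CCNY with EGFP, all in the FUGW vector, and each condition gave 2 RNA-seq libraries. The labels do not say that the 2 libraries of a condition came from separate cultures, so the p-values measure the spread between libraries, which may be technical, and the knockdown rests on a single shRNA construct. The measure is FPKM, the number of sequenced fragments scaled by transcript length and by library size. Comparing it between genes relies on the transcript lengths used, and the gene annotation behind them is not given.

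Kainate receptors are ion channels that open on binding glutamate, and each is built of 4 subunits. Grik1, Grik2 and Grik3 encode GluK1, GluK2 and GluK3, which can form channels on their own, whereas Grik4 and Grik5 encode GluK4 and GluK5, which bind kainate with high affinity and need a partner of the first group. In the hippocampus these receptors are best known at mossy fiber synapses and in interneurons, where they act on both sides of the synapse. Neto1 and Neto2 are auxiliary subunits that slow the channel and set its affinity.

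Ccny itself, the targeted gene, followed the labels, with 43.1 and 42.3 FPKM in the EGFP controls, 108 and 109 under CCNY-WT, and 5.98 and 6.19 under CCNY-shRNA. The number of reads is not in the table. The steps between the FPKM values of weakly expressed genes placed the depth of the libraries between 0.818 and 1.33 times that of EGFP replicate 1. Markers of the labelled cells were abundant, with the excitatory marker Slc17a7 at 877 to 944 FPKM and the interneuron marker Gad1 at 183 to 204. Of the 7 microglial genes, 6 stayed under 1 FPKM in every library, and 2 of these, Aif1 and Cx3cr1, were listed at 0 throughout. Cd68, the remaining one, ranged from 0.356 to 1.13. The astrocyte gene Gfap was present at 98.3 to 130.1. The astrocyte list had a summed FPKM of 538 to 577 in EGFP, 565 to 572 in CCNY-WT and 470.0 to 542 in CCNY-shRNA.

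All 5 subunits were expressed, in the same order in all 6 libraries: Grik5, Grik2, Grik4, Grik3 and Grik1. Grik5, the more widely expressed of the high-affinity genes, had 105 and 114 FPKM in the EGFP libraries and lay above 89.8% of the 10188 genes tested. Grik2, which encodes the main channel-forming subunit of principal neurons, followed at 45.7 and 46.6, above 76.2% of genes tested. These levels put GluK5 and GluK2 transcripts first among the kainate receptor subunits of these neurons.

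Grik4, the other high-affinity gene, known from pyramidal cells of area CA3, had 33.4 and 31.8 FPKM in EGFP. Grik3, whose receptors respond only to high glutamate, had 23.5 and 21.3. Grik1, known from interneurons, was the lowest with 9.31 and 10.2, above 35.0% of genes tested. No neighbours in this order overlapped over the 6 libraries. The closest were Grik2 and Grik4, where the lowest Grik2 value (37.0) was above the highest Grik4 value (33.4) and the ratio within a library was 1.22 to 1.46. Grik5 exceeded Grik2 by 2.29 to 2.71 times in every library, and Grik3 exceeded Grik1 by 2.09 to 2.71 times.

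Summed over the 5 genes, the EGFP libraries had 217 and 224 FPKM, of which Grik5 alone made up 48.4% and 50.9%. The high-affinity genes together stood at 1.76 and 1.87 times the channel-forming genes in EGFP, and within 1.76 to 1.88 times in all 6 libraries. The 5 subunits together were 83.3 and 85.6 FPKM for each 100 FPKM of the NMDA receptor subunits (7 genes) in EGFP. The AMPA receptor subunits Gria2, Gria3 and Gria4 together reached 333 and 357 FPKM. Gria1 was not analysed here.

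**Figure D1:**
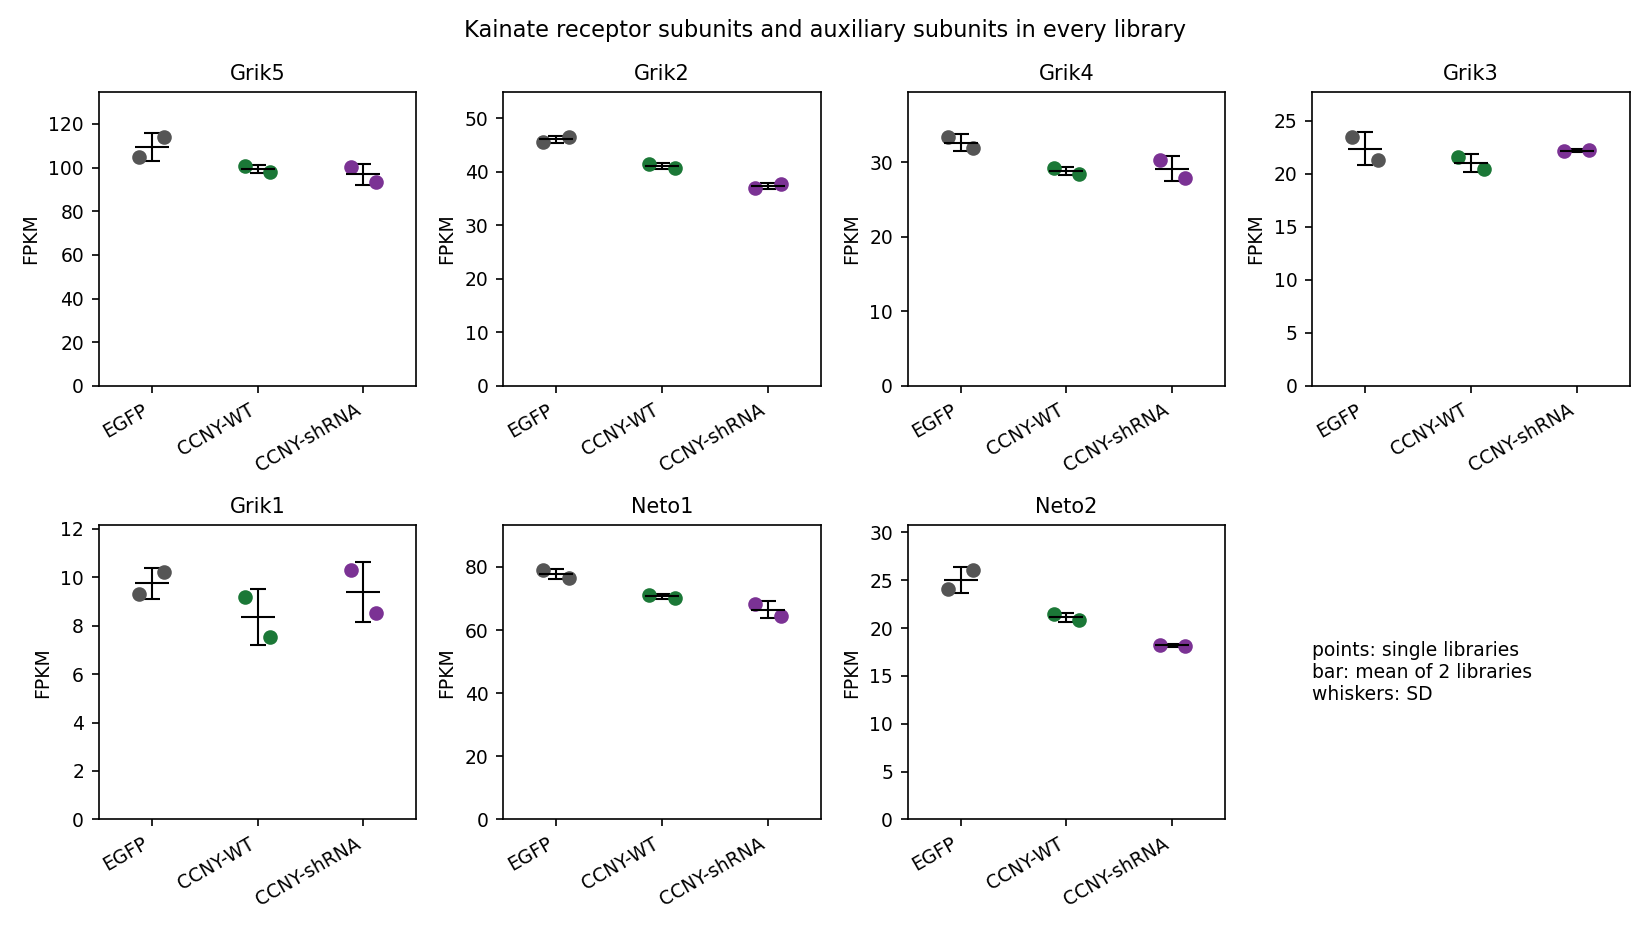
FPKM of the 5 kainate receptor subunits, ordered by level, and of the auxiliary subunits Neto1 and Neto2 in each library (points), with the mean (bar) and SD (whiskers) of the 2 libraries of a condition, on linear axes that start at 0. Grik2 and Neto2 step down from EGFP over CCNY-WT to CCNY-shRNA without overlap, while the Grik1 and Grik3 values of CCNY-shRNA overlap those of EGFP.

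The first comparison asked how subunit transcripts differ when CCNY is raised. All 5 subunits had lower mean levels in CCNY-WT than in EGFP, by 0.09 to 0.23 on the log2 scale, against a median over all genes tested of 0.004 and 48.6% of genes below 0. None passed limma's test after Benjamini-Hochberg adjustment over all 10188 genes, and 2, Grik2 and Grik4, had an unadjusted p under 0.05. In this comparison Ccny was the only gene past the adjusted threshold in either direction (0.00982% of genes tested), so the members were read against the wider background: 3% of all genes were lower and 3.83% higher at an unadjusted p under 0.05. For 4 of the 5 subunits both CCNY-WT libraries lay under both EGFP libraries, which held for 19.2% of all genes tested, with 20.3% higher without overlap. A log2 limit of 0.3, the size the study's methods used for overexpression, was passed by 0 of 5 subunits, by 3.76% of genes as lower and by 4.59% as higher.

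Grik2 had 41.5 and 40.8 FPKM in CCNY-WT against 45.7 and 46.6 in EGFP. Both CCNY-WT libraries were lower, and the replicates of a condition differed by less than 1 FPKM. The log2 change was -0.17 (95% confidence interval -0.30 to -0.03, limma adjusted p = 0.725). Grik4 had 29.2 and 28.4 against 33.4 and 31.8, also without overlap, a log2 change of -0.18 (-0.35 to -0.01, limma adjusted p = 0.729). For both genes the interval of the single-gene estimate stayed below 0, but the adjusted p did not pass.

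Grik5 had 101 and 98.1 FPKM in CCNY-WT against 105 and 114, a log2 change of -0.14 (-0.29 to 0.01, limma adjusted p = 0.748). Its libraries did not overlap, yet the 2 EGFP libraries were farther apart than the lowest of them was from the highest CCNY-WT library. Grik1 had 9.17 and 7.55 against 9.31 and 10.2, a log2 change of -0.23 with the widest interval of the 5 (-0.58 to 0.12, limma adjusted p = 0.813). Grik3 had 21.6 and 20.4 against 23.5 and 21.3, with overlap, and a log2 change of -0.09 (-0.28 to 0.11, limma adjusted p = 0.880). Single libraries moved these 3 values. Grik1 was at -0.37 without CCNY-WT replicate 1 and -0.09 without CCNY-WT replicate 2. Grik3 was at -0.02 without EGFP replicate 1, -0.16 without EGFP replicate 2 and -0.05 without CCNY-WT replicate 2, and Grik5 at -0.075 without EGFP replicate 2.

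The second comparison asked how the subunits differ when CCNY is lowered, and among the 5 Grik2 had the change of greatest size. Grik2 had 37.0 and 37.7 FPKM in CCNY-shRNA against 45.7 and 46.6 in EGFP, a mean of 37.4 ± 0.534 (SD, n = 2) against 46.1 ± 0.625. Both CCNY-shRNA libraries were lower, and the replicates of either condition differed by 0.03 on the log2 scale. The log2 change was -0.30 (standard error 0.0591, 95% confidence interval -0.44 to -0.17), that is 19.0% lower by point estimate (percent change -19.0), with an unadjusted limma p of 9.53e-04. The adjusted p was 0.0667, so Grik2 did not pass the threshold of 0.05, and over 15 alternative settings it ranged from 0.0526 to 0.356.

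Grik5 had 100.4 and 93.4 FPKM in CCNY-shRNA, both below the EGFP values of 105 and 114, a log2 change of -0.17 (-0.32 to -0.03, limma adjusted p = 0.205). Grik4 had 30.3 and 27.9 against 33.4 and 31.8, again without overlap, with a log2 change of -0.16 (-0.33 to 0.01, limma adjusted p = 0.287). In both genes the CCNY-shRNA libraries differed from each other by 0.10 and 0.12 on the log2 scale, against changes of 0.17 and 0.16 in size. The change of Grik5 was -0.11 without EGFP replicate 2, and that of Grik4 was -0.10 without CCNY-shRNA replicate 2.

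Grik3 had 22.1 and 22.3 FPKM in CCNY-shRNA, between the EGFP values of 23.5 and 21.3. Its log2 change was -0.01 (-0.21 to 0.19, limma adjusted p = 0.967), and the sign turned with upper-quartile scaling, to 0.01, and without EGFP replicate 1, to 0.06. Grik1 had 10.3 and 8.53 against 9.31 and 10.2, a log2 change of -0.06 (-0.41 to 0.29, limma adjusted p = 0.885), which turned to 0.01 without EGFP replicate 2 and to 0.08 without CCNY-shRNA replicate 2. The CCNY-shRNA libraries of both genes overlapped those of EGFP.

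In all, 0 of the 5 subunits passed limma's adjusted threshold in CCNY-shRNA, where 0.746% of genes tested passed it, 0.579% as lower and 0.167% as higher. At an unadjusted p under 0.05, 2 subunits (Grik2 and Grik5) were lower and 0 higher, against 9.36% and 9.2% of all genes. Libraries did not overlap and were lower for 3 of 5 subunits, against 24.5% of all genes, and higher for 0 of 5, against 23.9%. The log2 limit of 0.33 that the study's methods used for knockdown was passed by 0 of 5, by 7.59% of genes as lower and by 5.52% as higher, and Grik2 (-0.30) was just short of it. All 5 changes were below 0, as were 49.8% of those of all genes, and their median was -0.164 against 0 for all genes tested. CCNY-WT and CCNY-shRNA were compared with the same EGFP libraries; the 2 sets of changes are therefore not independent.

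Directly between CCNY-shRNA and CCNY-WT, which does not use the EGFP libraries for the difference, Grik2 was lower in CCNY-shRNA by point estimate (log2 change -0.14, 95% confidence interval -0.28 to -0.00154, limma adjusted p = 0.408) and the libraries did not overlap. None of the 5 subunits passed the adjusted threshold, which 0.216% of genes did in either direction (0.0196% higher and 0.196% lower). At an unadjusted p under 0.05, 1 of 5 was lower and 0 higher, against 7.12% and 5.05% of genes. Without overlap, 1 of 5 was lower (Grik2) and 1 higher (Grik3), against 21.9% and 20.3%, and 2 of 5 changes were below 0, against 49.5%. For Grik4 and Grik5 the log2 differences were 0.01 (-0.16 to 0.19) and -0.04 (-0.19 to 0.11), at limma adjusted p-values of 0.959 and 0.866. Grik1 and Grik3 had higher mean levels in CCNY-shRNA than in CCNY-WT, by 0.17 (-0.18 to 0.52) and 0.08 (-0.12 to 0.27), at limma adjusted p-values of 0.715 and 0.774. With a library left out, the difference of Grik1 ranged from 0.03 to 0.31, lowest without CCNY-WT replicate 2 and highest without CCNY-WT replicate 1, and CCNY-shRNA replicates 1 and 2 moved it to 0.035 and 0.31. That of Grik3 was 0.04 and 0.12 without CCNY-WT replicates 2 and 1.

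**Figure D2:**
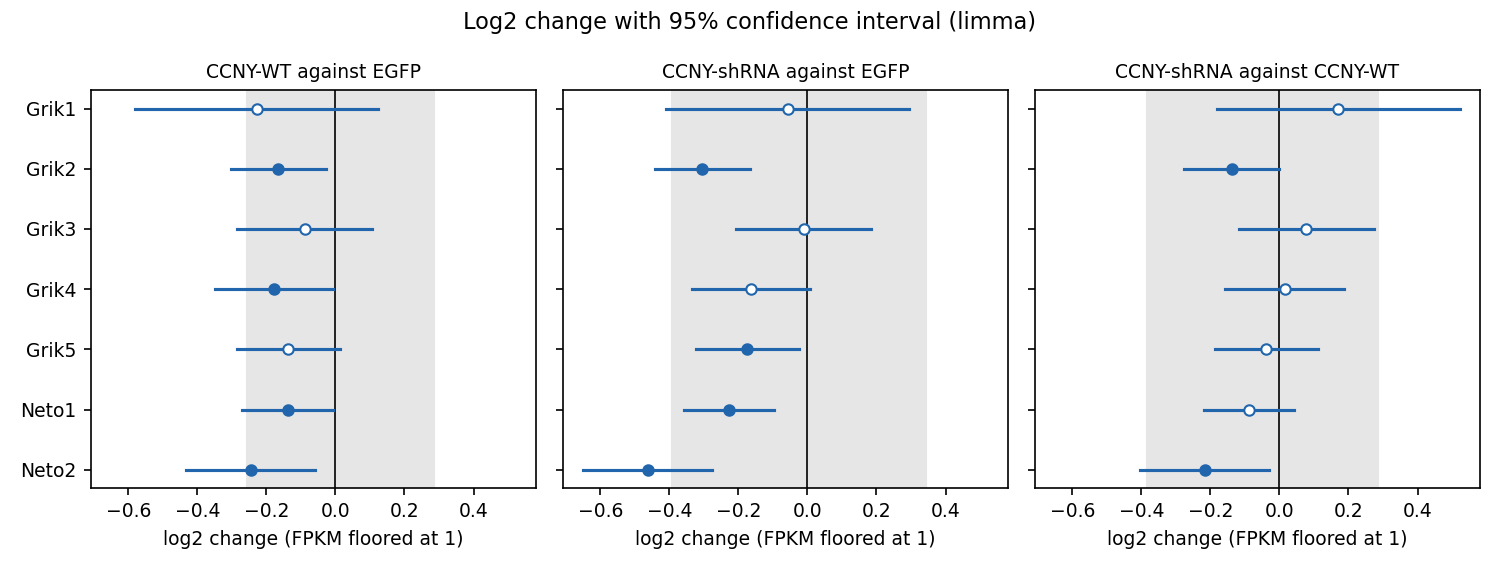
Log2 change (points) with the 95% confidence interval (lines) from limma for the kainate receptor subunits and Neto1 and Neto2 in the 3 comparisons, on log2 FPKM floored at 1. Filled points have an unadjusted p under 0.05, and the grey band holds the middle 90% of all genes tested, from the percentiles 5 and 95. Only Neto2 in CCNY-shRNA lies outside the band.

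The summed FPKM of the 5 subunits was 217 and 224 in the EGFP controls, 202 and 195 under CCNY-WT, and 200.1 and 189.9 under CCNY-shRNA. All 4 libraries with altered CCNY lay under both EGFP libraries, and the CCNY-WT and CCNY-shRNA libraries overlapped. With 2 libraries against 2, the two-sided exact permutation test used for sums, shares and ratios cannot give a p under 0.333, which is the value for every such comparison without overlap. After adjustment over the 51 comparisons of this kind the smallest p was 0.63, so these are descriptions of the libraries.

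The share of Grik2 in the sum was 21.1% and 20.8% in the EGFP controls, 20.5% and 20.9% under CCNY-WT, and 18.5% and 19.9% under CCNY-shRNA. The share of Grik3 was 10.8% and 9.50% in the EGFP controls, 10.7% and 10.5% under CCNY-WT, and 11.1% and 11.7% under CCNY-shRNA. Grik2 thus took the smallest part, and Grik3 the largest, in the CCNY-shRNA libraries, without overlap with the other conditions. Expressed as a ratio, Grik2 to Grik3 was 1.94 and 2.19 in the EGFP controls, 1.92 and 1.99 under CCNY-WT, and 1.67 and 1.69 under CCNY-shRNA.

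The shares of the other subunits overlapped those of EGFP in both other conditions, whereas those of Grik2 and Grik3 did so in CCNY-WT only. Grik5 made up 48.4% to 50.9% of the sum over all 6 libraries, and its ratio to Grik4 was 3.14 and 3.58 in the EGFP controls, 3.45 and 3.46 under CCNY-WT, and 3.31 and 3.34 under CCNY-shRNA. The EGFP replicates spanned the range of both other conditions here. The share of Grik1 was between 3.87% and 5.14%.

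**Figure D3:**
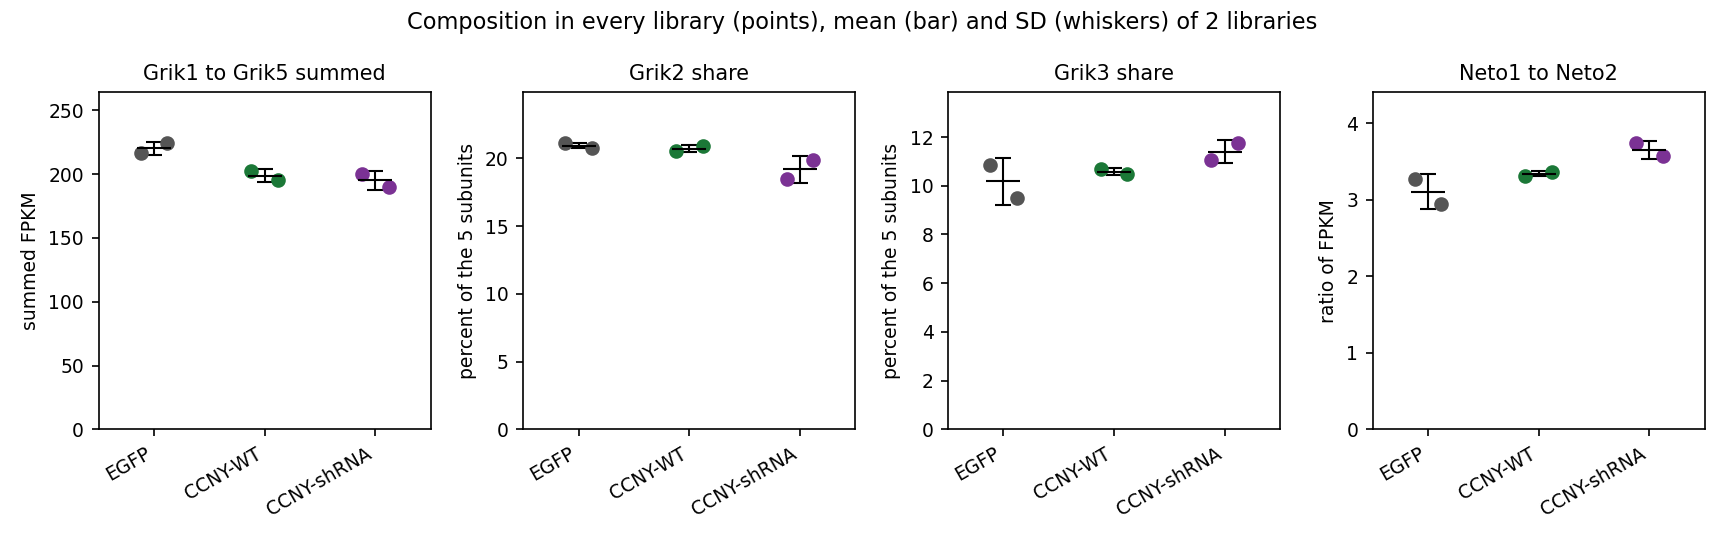
Summed FPKM of the 5 subunits, the shares of Grik2 and Grik3 in that sum (percent) and the ratio of Neto1 to Neto2 FPKM in each library (points), with the mean (bar) and SD (whiskers) of 2 libraries. The Grik2 share is lowest and the Grik3 share and the Neto ratio are highest in the CCNY-shRNA libraries.

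The sequences before the gene start are given for Grik2 and Grik3, the members with the largest and the smallest change in CCNY-shRNA. They are the 250 bases upstream of the start in RefSeq on build GRCr8, a later build than the rn4 used for the FPKM values. The start sites that gave the reads are not known. Neither change passed the adjusted threshold, and a link between sequence and change was not tested. Capitals mark 2 motifs on either strand, the GC box GGGCGG, a site of Sp1-type factors, and TGACG, the half-site of the cAMP response element.

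Grik2 (chr20:54415284-54415533, minus strand): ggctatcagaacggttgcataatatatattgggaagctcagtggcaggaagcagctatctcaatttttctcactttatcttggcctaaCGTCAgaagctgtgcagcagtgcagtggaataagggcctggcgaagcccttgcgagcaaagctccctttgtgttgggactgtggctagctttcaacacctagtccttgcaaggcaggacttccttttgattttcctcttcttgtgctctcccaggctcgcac

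Grik3 (chr5:143052192-143052441, plus strand): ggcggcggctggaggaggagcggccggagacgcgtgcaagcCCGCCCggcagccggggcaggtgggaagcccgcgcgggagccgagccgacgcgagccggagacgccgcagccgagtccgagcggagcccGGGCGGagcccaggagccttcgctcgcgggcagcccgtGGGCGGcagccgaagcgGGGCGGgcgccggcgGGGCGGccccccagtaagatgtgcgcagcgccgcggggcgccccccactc

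The Grik2 stretch was 49.6% G and C with 5 CpG dinucleotides, near the median of 52.0% and 6 over 27457 promoters of the same length. It held 1 TGACG half-site and 0 GC boxes. The Grik3 stretch was 81.6% G and C with 41 CpG dinucleotides, more G and C than 99.4% of promoters, and held 5 GC boxes and 0 TGACG half-sites. Among all promoters, 32.4% held a GC box and 19.0% a TGACG half-site. Of the other members, Grik5 (70.8% G and C) held 1 GC box, and Grik1 (57.6%) and Grik4 (43.2%) held neither motif. TATAAA, searched on both strands too, was in none of the 5 stretches and in 13.1% of all promoters.

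The auxiliary subunits had the same order of conditions as Grik2. Neto1, which slows synaptic kainate receptors, had 78.9 and 76.6 FPKM in the EGFP controls, 71.2 and 70.0 under CCNY-WT, and 68.3 and 64.6 under CCNY-shRNA. Neto2 had 24.1 and 26.0 in the EGFP controls, 21.5 and 20.8 under CCNY-WT, and 18.3 and 18.1 under CCNY-shRNA. For both genes each condition was separated from the others without overlap, EGFP highest and CCNY-shRNA lowest. Of all genes tested, 19.2% were lower without overlap in CCNY-WT and 24.5% in CCNY-shRNA against EGFP, and 21.9% in CCNY-shRNA against CCNY-WT. How many genes had all these separations at once was not counted. The order differed from that of Ccny, which was highest in CCNY-WT.

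In CCNY-shRNA the log2 change of Neto2 was -0.46 (standard error 0.0806, 95% confidence interval -0.65 to -0.28, limma adjusted p = 0.0543), the largest in size among the subunits and auxiliary subunits. It lay just outside the threshold in the reported setting and passed with log2(FPKM + 1) (adjusted p = 0.0467), log2(FPKM + 0.1) (0.0470) and a filter on mean FPKM of at least 5 (0.0362), while over all alternatives the limma adjusted p reached 0.354. Neto1 had a log2 change of -0.23 (-0.36 to -0.10, limma adjusted p = 0.101). In CCNY-WT the changes were -0.25 (-0.43 to -0.06) for Neto2 and -0.14 (-0.27 to -0.01) for Neto1, at limma adjusted p-values of 0.725 for both. The ratio of Neto1 to Neto2 was 3.27 and 2.94 with EGFP, 3.32 and 3.37 with CCNY-WT, and 3.74 and 3.57 with CCNY-shRNA, with no overlap.

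Per FPKM of receptor subunit, the auxiliary subunits together stood at 0.476 and 0.458 in the EGFP controls, 0.458 and 0.465 under CCNY-WT, and 0.433 and 0.435 under CCNY-shRNA. The CCNY-shRNA libraries were the lowest and did not overlap the others.

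Of the wider set of partners, written from general knowledge, Nrxn3 passed the adjusted threshold in CCNY-shRNA. Neurexin 3 is a presynaptic adhesion protein that links kainate receptors at mossy fiber synapses through C1q-like proteins. Its FPKM was 42.4 and 41.2 in the EGFP controls, 39.3 and 37.0 under CCNY-WT, and 30.4 and 28.9 under CCNY-shRNA. Nrxn3 fell in CCNY-shRNA by 0.50 on the log2 scale (-0.65 to -0.34 for the change, limma adjusted p = 0.0321), but the call was lost when any of the 6 libraries was left out (limma adjusted p from 0.085 to 0.3162), and with no filter (0.1279), no trend (0.1428) or the 4 compared libraries alone (0.1723). Of the 4 adhesion and secreted partners tested, 1 fell and 0 rose, against 0.579% and 0.167% of all genes, and the median log2 change was -0.273. The secreted partner C1ql2 was listed at 0 in every library, whereas C1ql3, the other C1q-like gene of the list, was expressed. C1ql3 had 44.0 and 43.2 FPKM in the EGFP controls, 45.1 and 35.7 under CCNY-WT, and 42.1 and 26.2 under CCNY-shRNA. Its log2 change in CCNY-shRNA was -0.39 (-0.86 to 0.07, limma adjusted p = 0.341).

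Among the scaffold and PDZ proteins, 0 of 9 passed in either direction in CCNY-shRNA (median change 0.024 in log2). Dlg3, which encodes SAP102, had 53.0 and 55.3 FPKM in EGFP and 48.5 and 44.2 in CCNY-shRNA (limma adjusted p = 0.144), whereas Dlg4, which encodes PSD-95, ranged from 302 to 327 over all libraries. Among trafficking, turnover and interacting proteins, 0 of 5 tested passed. Klhl24, which encodes a protein that binds GluK2, had 19.7 and 20.0 against 16.7 and 16.1 (limma adjusted p = 0.187).

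The SUMO cycle, which modifies GluK2 and drives its removal from the surface, had 0 of 3 genes past the threshold. The median of their log2 changes in CCNY-shRNA was 0.059. The RNA editing enzymes, which recode the pore of GluK1 and GluK2, had 0 of 2 genes past the threshold. Adarb1 was higher than EGFP without overlap in CCNY-WT (32.1 and 32.6 FPKM) and in CCNY-shRNA, as were 20.3% and 23.9% of all genes tested. Adar had 47.9 and 45.6 FPKM in EGFP and 47.5 and 45.6 in CCNY-shRNA, and Adarb1 had 30.5 and 30.3 against 32.5 and 32.9 (log2 change 0.10, -0.04 to 0.25, limma adjusted p = 0.419). Ctnnb1, which encodes beta-catenin and joins cadherins to kainate receptor complexes, had 171 and 170.0 against 156 and 151 (limma adjusted p = 0.171). In CCNY-WT, 0 genes of these partner lists passed the adjusted threshold.

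The kainate receptor subunits were set beside the other ionotropic glutamate receptor subunits. In CCNY-shRNA, 10 of the 11 other subunits tested had log2 changes below 0, as did 49.8% of all genes, with a median of -0.198, against -0.164 for the kainate subunits. None passed the adjusted threshold in limma, and 6 of the 11 had an unadjusted p under 0.05, all of them lower, where 9.36% of all genes were lower and 9.2% higher. Grin2a, an NMDA receptor subunit, had the smallest p of these, at 21.5 and 21.0 FPKM with EGFP against 17.5 and 14.8 with CCNY-shRNA (log2 change -0.40, limma adjusted p = 0.112).

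In CCNY-WT, the other subunits had a median log2 change of -0.084 with 6 of 11 below 0, against -0.165 and 5 of 5 for the kainate subunits and 48.6% of all genes below 0. The level of the 5 kainate subunits for each 100 FPKM of NMDA receptor subunits was 83.3 and 85.6 in the EGFP controls, 76.0 and 75.1 under CCNY-WT, and 81.6 and 83.0 under CCNY-shRNA. The CCNY-WT libraries were the lowest and did not overlap the others. For each 100 FPKM of Gria2, Gria3 and Gria4, the kainate subunits reached 65.0 and 62.7 in the EGFP controls, 59.4 and 62.6 under CCNY-WT, and 63.7 and 64.7 under CCNY-shRNA. The CCNY-WT libraries were again the lowest without overlap, though by less than 0.1 between CCNY-WT replicate 2 and EGFP replicate 2.

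**Figure D4:**
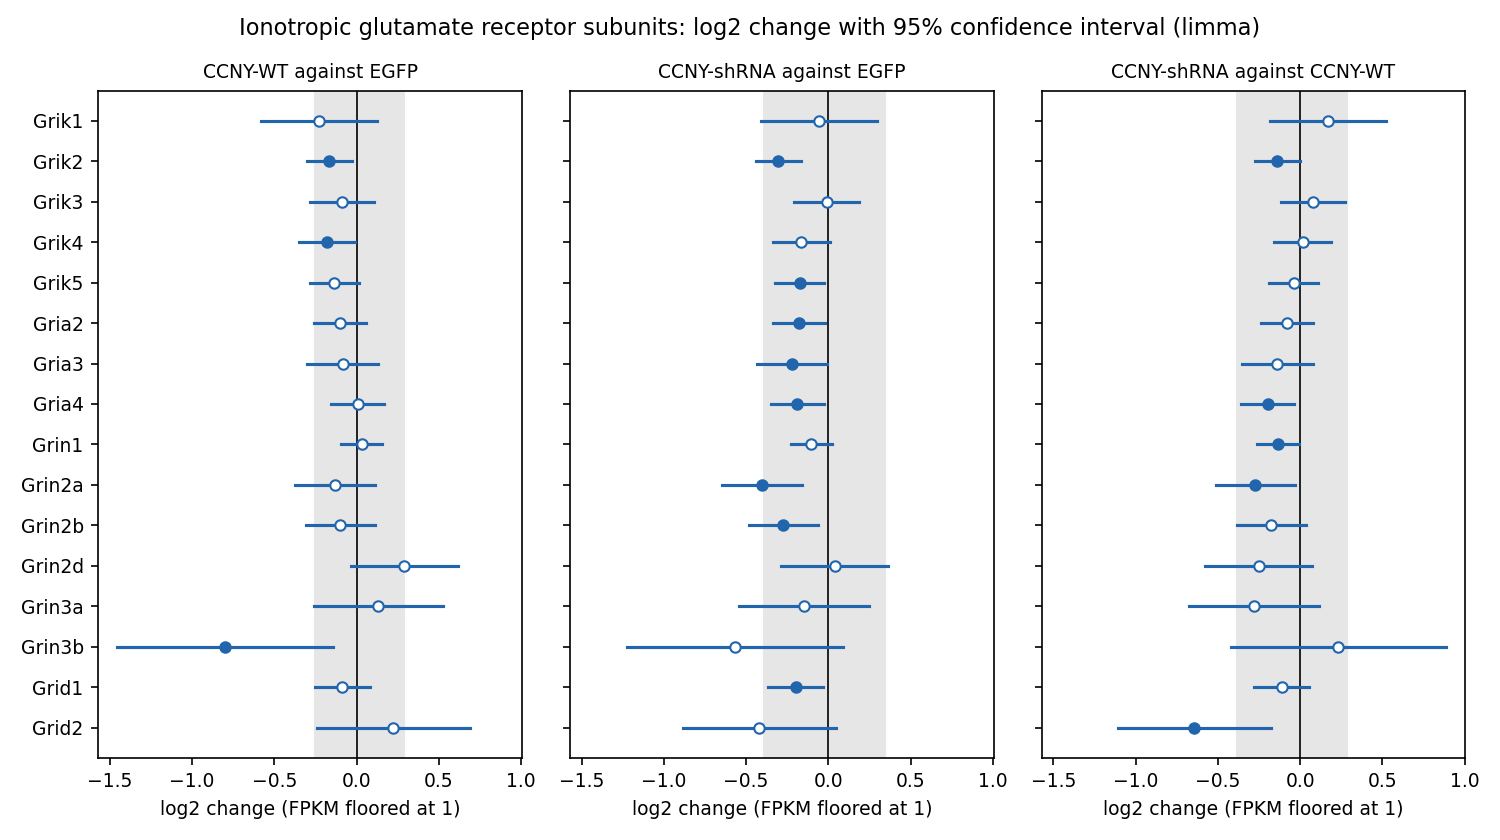
Log2 change (points) with the 95% confidence interval (lines) from limma for the kainate (Grik), AMPA (Gria), NMDA (Grin) and delta (Grid) receptor subunits that were tested, with filled points for an unadjusted p under 0.05 and a grey band for the middle 90% of all genes tested. In CCNY-shRNA most subunits of every family lie left of 0. In CCNY-WT the 5 kainate subunits do, as do 6 of the 11 others, with 5 to the right. Gria2 (-0.10) and Gria3 (-0.08) lie close to Grik3 (-0.09), and Gria4 is at 0.01.

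Markers of cell types were compared since a bulk library cannot tell fewer cells of a type from less RNA per cell. In CCNY-shRNA, the GABAergic interneuron list had a summed FPKM of 2079 and 2245 against 2419 and 2543 in EGFP, and 2 of its 11 tested genes fell, against 0.579% of all genes, in a comparison whose 76 calls over all genes dropped to between 1 and 7 when a library was left out. Among them was Gad2, an enzyme of GABA synthesis (170 and 173 FPKM in EGFP, 129.5 and 129.0 in CCNY-shRNA, limma adjusted p = 0.0226). Gad1 had 189 and 188 against 183 and 187. Sst, the highest gene of the list and a large part of its sum, had 1256 and 1311 against 1043 and 1158. Of the 11 genes tested, 10 had log2 changes below 0 and 1 above, where 49.8% of all genes were below 0. Grik1, the subunit known from interneurons, had overlapping values in the same libraries, with a wide interval for its log2 change (-0.41 to 0.29). A link between Grik1 and the interneuron markers was not tested.

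The excitatory neuron list summed to 1509 and 1562 in the EGFP controls, 1472 and 1477 under CCNY-WT, and 1486 and 1495 under CCNY-shRNA, and the general neuron list to 4122 to 4165, 4076 to 4117 and 4121 to 4150. In both lists 0 genes passed the adjusted threshold in CCNY-WT or CCNY-shRNA. The excitatory sum was led by Slc17a7 (877 to 944 FPKM) and covered changes in both directions. In CCNY-shRNA, 3 of the 6 excitatory genes had log2 changes above 0 and 3 below. Neurod2 was at 0.40 (limma adjusted p = 0.0819), Neurod6 at -0.20 (0.137) and Camk2a at -0.18 (0.214). The part of such differences in the Grik2 values was not tested. The astrocyte list, whose sums are given above, had 0 of 8 genes past the threshold in CCNY-shRNA and a median change of -0.162 in log2, and the oligodendrocyte lineage list 0 of 5 with -0.116. The hippocampal subfield list had 0 of 3, with the area CA1 marker Wfs1 at 32.7 and 33.1 FPKM in EGFP and 27.1 and 26.2 in CCNY-shRNA (limma adjusted p = 0.0902). The vascular and meningeal list had 2 genes tested and the microglial list 1, with 0 past the threshold.

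Genes whose levels moved most like each subunit were sought among tested genes within 1 of its mean log2 FPKM, by the root mean square difference of centred log2 values over the 6 libraries. For Grik2 the closest were G6pc3, Hiat1 and Cpne6, at 0.0190, 0.0222 and 0.0319, against a median of 0.147 over 3180 genes. Cpne6, a copine expressed in neurons, had 73.5 and 76.5 FPKM in the EGFP controls, 67.3 and 69.6 under CCNY-WT, and 59.1 and 60.7 under CCNY-shRNA. For Grik5, Acsl3 and Astn1 were among the closest 3 (0.0225 and 0.0232, median 0.118 over 1678 genes).

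For Grik4 the closest were Ythdf2, Rapgef2 and Tpbg (0.0216 to 0.0261, median 0.127). For Grik3 they were Dyrk1a, Farsb and Sos1 (0.0203 to 0.0255, median 0.117), and for Grik1 Pced1a, Usp42 and Pclo (0.0236 to 0.0352, median 0.199). Among the members and auxiliary subunits themselves, the nearest were Grik4 and Neto1 at 0.0449 and Grik2 and Neto1 at 0.0491, and the farthest was Grik1 from Neto2 at 0.212. These are descriptions over 6 libraries and each was picked from all genes compared.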

How the data were processed

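RNA-seq was measured in 6 libraries of rat hippocampal neurons, 2 per condition. Paired-end reads were mapped by the authors with TopHat 2 on rn4 and quantified in Cufflinks (version 2.2.1 in the submitters' processing notes), and the FPKM values were deposited by gene symbol. The gene annotation, and whether libraries were scaled, are not given in the sources used here. Of the symbols, 16683 matched RefSeq names or synonyms and 383 did not. Read numbers are unknown, and relative depth was the densest ratio between libraries among genes with a highest FPKM under 0.3.

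Values under 1 were set to 1 before taking log2, so a fold change near that floor is understated. A linear model with group means was fitted in limma 3.58.1 under R 4.3.3 (lmFit, contrasts.fit, eBayes, intensity trend on) to the 6 libraries together. It covered 10188 genes that reached 1 FPKM in 2 libraries or more, and p-values were adjusted over these by Benjamini-Hochberg with 0.05 as threshold. The procedure was first tested on simulated data with independent noise and changes larger than those of the subunits. That test does not show how well changes of the subunits' size are found. Shares and ratios were compared with the two-sided exact permutation test. Python 3.11.15 with pandas 2.3.3 prepared the tables, and matplotlib 3.10.9 drew the plots.

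The 5 members and the 15 gene lists were chosen with earlier results of these data known. Named genes are the members, Ccny, the auxiliary subunits, the RNA editing enzymes, members of the partner lists and of the other ionotropic subunits with an unadjusted p under 0.05 in a comparison, and the 3 genes of nearest pattern for each member. Dlg4, C1ql2, C1ql3 and the marker genes were named outside this rule, after their values were seen, as were the promoters shown. The partner lists were auxiliary subunits, scaffold and PDZ proteins, adhesion and secreted partners, trafficking and interacting proteins, SUMO cycle genes, RNA editing enzymes and other ionotropic subunits. Kif17, Senp1, Gria1, Aldh1l1 and Kdr were not analysed here. Some genes that the rule names are not reported here. Alternatives covered the offset, the filter, the scaling, how the spread was estimated, a replicate block and leaving out each library.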

Additional observations from a re-analysis of the deposited data

How the results depend on the processing

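None of the 5 subunits passed the adjusted threshold in any comparison under any of the 15 alternatives, and Grik2 in CCNY-shRNA kept its direction in all of them. The number of genes called over the whole table was less stable. For CCNY-WT against EGFP it was 1, with 3 under log2(FPKM + 1), 3 under a filter on mean FPKM of at least 5, and 0 to 1 when a library was left out. For CCNY-shRNA against EGFP it was 76, with 2 without a filter, 144 with the filter at 5, 1 without the trend, 1 in the 4 compared libraries alone and 1 to 7 with a library left out. For CCNY-shRNA against CCNY-WT it was 22, with 2, 37, 1, 1 and 1 to 8 under the same settings. The cause was not tested. A condition left with 1 library was assumed to vary like the others.

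With the replicate number as a replicate block, 39 genes passed in CCNY-shRNA against EGFP and the limma adjusted p of Grik2 was 0.0918. Libraries with the same number correlated by 0.0377 to 0.0538 in their deviations. The labels do not say whether such libraries share a culture or a preparation, and a correlation over all genes cannot decide it.

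Small changes turned in sign. In CCNY-shRNA against EGFP, Grik3 had a log2 change of 0.00833 with upper-quartile scaling and of -0.0816 to 0.0607 with a library left out, and Grik1 of -0.193 to 0.0781. Against CCNY-WT, Grik4 ranged from -0.0443 to 0.0738 and Grik5 from -0.0899 to 0.014. Among shares of the sum, in percentage points for CCNY-WT minus EGFP, Grik1 ranged from -0.559 to 0.108, Grik3 from -0.263 to 1.08, Grik4 from -0.921 to 0.279 and Grik5 from -0.908 to 1.68. For CCNY-shRNA minus EGFP, Grik4 ranged from -0.485 to 0.716 and Grik5 from -1.26 to 1.33, with -0.0486 after adding 1 to each FPKM, and for CCNY-shRNA minus CCNY-WT Grik5 ranged from -0.837 to 0.142. The log2 ratio of Grik5 to Grik4 ranged from -0.054 to 0.138 in CCNY-WT and from -0.107 to 0.0852 in CCNY-shRNA against EGFP. Other scalings moved the median of all genes by at most 0.018. Read numbers are unknown, so no counting interval can be given.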
